A study of Mus musculus with 11 samples.

Results

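Interferon-stimulated genes were followed in RNA sequencing of mandibular condylar fibrocartilage, the tissue that covers the condyle of the jaw joint, from female C57BL/6 mice. The set is a fixed list of 39 gene symbols, all of which were found among the 23420 symbols of the count table, and all 39 had enough counts to be tested. The design asked how 17β-estradiol acts on this tissue through estrogen receptor alpha. The 4 groups were WT mice with an estradiol pellet (n = 3), WT mice with placebo (n = 2), ERalphaKO mice, written KO here, with estradiol (n = 3) and KO mice with placebo (n = 3). Every animal, placebo and KO included, had been ovariectomized at 6 weeks of age, carried its pellet (0.01 mg estradiol over 60 days, or placebo) for 1 week and gave tissue at 7 weeks. How the knockout allele was made is not given in the sources used here, and the labels do not say whether a sample is 1 animal or a pool. The p-values therefore reflect how far samples with the same label lay apart, and some of that spread may be technical.

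Interferons are secreted proteins that bind receptors on the cell surface and, through Janus kinases, activate factor complexes that hold STAT2 and IRF9. Such complexes bind a DNA element called ISRE (interferon-stimulated response element) before the starts of target genes, and a second element, GAS (gamma-activated site), serves the response to interferon gamma. The target genes encode sensors of viral RNA, proteins that block viral entry, copying or release, and the machinery that shows peptides on MHC class I. In cartilage and bone such genes are expressed by skeletal cells and by the blood cells of the marrow, so that bulk RNA reads them together.

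Library totals ran from 15.7 to 25.5 M counts. Levels are given as CPM, counts per M of the TMM-scaled library total, on which 3 counts equal 0.118 to 0.204 CPM. The 15 fibrocartilage markers were present in every group, with a summed level of 115761 to 180285 CPM over the libraries. Esr1, the receptor gene, had 2.55 to 4.86 CPM in KO libraries and 6.43 to 13.4 CPM in WT libraries, and counts over the whole gene do not show how much receptor remained. Library WT placebo 2 stood apart, with the ribosomal precursor Rn45s at 16% of its counts, against 1.83% to 3.13% in the other libraries, and with a summed level of 15 skeletal muscle markers of 1222 CPM, against 41.5 CPM in WT placebo 1. The summed level of 14 neutrophil markers was 1214 to 4459 CPM in KO estradiol libraries, 1.56 to 713 CPM in KO placebo, 8.72 to 41.5 CPM in WT estradiol and 219 and 495 CPM in WT placebo. A marker that was lower in a group can mean fewer cells of a type or less RNA per cell, and these cannot be told apart in bulk samples.

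Promoter windows of the members were taken from RefSeq on GRCm38.p6, which is a later build than the mm9 of the authors' processing, as 250 bases before and 50 bases after a start. Of the 39 genes, 30 had a window. The ISRE core, which is GAAA, any 2 bases and GAAA again, was found on either strand in 16 of these 30 windows (53.3%), against 3.99% of the windows of 27025 genes. The GAS letters TTCNNNGAA, which read the same on both strands, were found in 9 of 30 (30%), against 9.55% of all. The letters of a full estrogen response element (GGTCA, any 3 bases and TGACC) were found in 0 of 30 windows and in 0.074% of all windows. Both ISRE and GAS letters stood in 5 windows, and in Bst2 and Ifitm3 a match of one overlapped a match of the other. A match of letters is a description of the window and not evidence of binding.

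The windows of Bst2 and Oas3 are shown because their transcripts gave the only calls among the 39 genes. Each is written 5′ to 3′ on the strand of the gene, with the ISRE core in capitals, and the last 50 bases lie after the start.
Bst2 chr8:71537423-71537722 (minus strand): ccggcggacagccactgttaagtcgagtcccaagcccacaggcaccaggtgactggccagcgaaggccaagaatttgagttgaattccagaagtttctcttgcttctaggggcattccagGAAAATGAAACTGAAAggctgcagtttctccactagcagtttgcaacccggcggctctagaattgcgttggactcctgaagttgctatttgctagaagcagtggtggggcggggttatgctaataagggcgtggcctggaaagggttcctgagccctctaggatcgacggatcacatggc
Oas3 chr5:120777610-120777909 (minus strand): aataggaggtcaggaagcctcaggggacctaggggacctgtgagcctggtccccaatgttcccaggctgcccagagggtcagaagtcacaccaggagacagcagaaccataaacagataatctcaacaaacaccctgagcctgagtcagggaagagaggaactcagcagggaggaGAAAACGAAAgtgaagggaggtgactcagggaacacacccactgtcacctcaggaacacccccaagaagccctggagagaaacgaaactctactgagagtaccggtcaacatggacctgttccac

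The Bst2 window held 2 overlapping cores, whose first begins 130 bases before the start, and a GAS match that begins 136 bases before it. The Oas3 window held 1 core, beginning 75 bases before the start. Stretches of 80 bases from 4 further members, printed for comparison, hold the same letters in genes that were not called.
Ifit1 chr19:34640759-34640838 (plus strand): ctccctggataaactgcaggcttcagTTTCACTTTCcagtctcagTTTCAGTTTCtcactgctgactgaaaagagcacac
Ifit3 chr19:34583355-34583434 (plus strand): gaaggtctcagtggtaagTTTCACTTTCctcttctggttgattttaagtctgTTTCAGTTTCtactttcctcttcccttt
Isg15 chr4:156200846-156200925 (minus strand): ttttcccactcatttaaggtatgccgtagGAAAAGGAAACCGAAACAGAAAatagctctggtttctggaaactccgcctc
Rsad2 chr12:26456528-26456607 (minus strand): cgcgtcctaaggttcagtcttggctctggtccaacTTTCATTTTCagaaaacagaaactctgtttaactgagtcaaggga

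Ifit1 and Ifit3 each held 2 cores in this stretch, Isg15 held 3 that overlap, and Rsad2 held 1. These 4 members were printed because their windows hold a core, so the comparison says nothing of called against uncalled genes.

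Per length of exon, the 39 genes spanned from 131 CPM per kb for Ifitm3 to 0.271 CPM per kb for Oas3, averaged over the libraries. Ifitm3 makes a membrane protein that blocks the fusion of entering viruses. Bst2, which encodes tetherin, a protein that holds budding virus particles at the cell surface, was second at 26.3 CPM per kb. Ifi35 (9.26 CPM per kb) and the transcription factor gene Irf1 (8.56 CPM per kb) came next. Oas3, whose enzyme makes the 2-5A signal that turns on RNase L, was the lowest in level and also the most uneven. Its highest library stood 19.8 times above its lowest, against 1.28 times for Stat2, the steadiest member. Of the 39 genes, 15 varied by less than 2 times between their lowest and highest libraries and 8 by more than 4 times.

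WT estradiol had the highest group mean for 19 of the 39 genes and KO estradiol for 12, whereas KO placebo had the lowest mean for 23. Over all 14531 genes tested, WT estradiol was highest for 28.7%, KO estradiol for 27.1%, and KO placebo was lowest for 23.6%. By library, WT estradiol 3 held the highest value for 12 genes, KO estradiol 3 for 9 and WT placebo 1 for 7. Over all genes tested, these libraries were highest for 17.7%, 6.07% and 7.89%. The lowest value lay in KO placebo 3 for 12 genes, in WT placebo 2 for 9 and in KO estradiol 1 for 7. Of all genes tested, 6.93%, 12% and 7.98% had their lowest value there. The 2 WT placebo libraries thus lay on opposite sides, with a median log2 deviation over the 39 genes of 0.13 in WT placebo 1 and -0.22 in WT placebo 2.

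**Figure D1:**
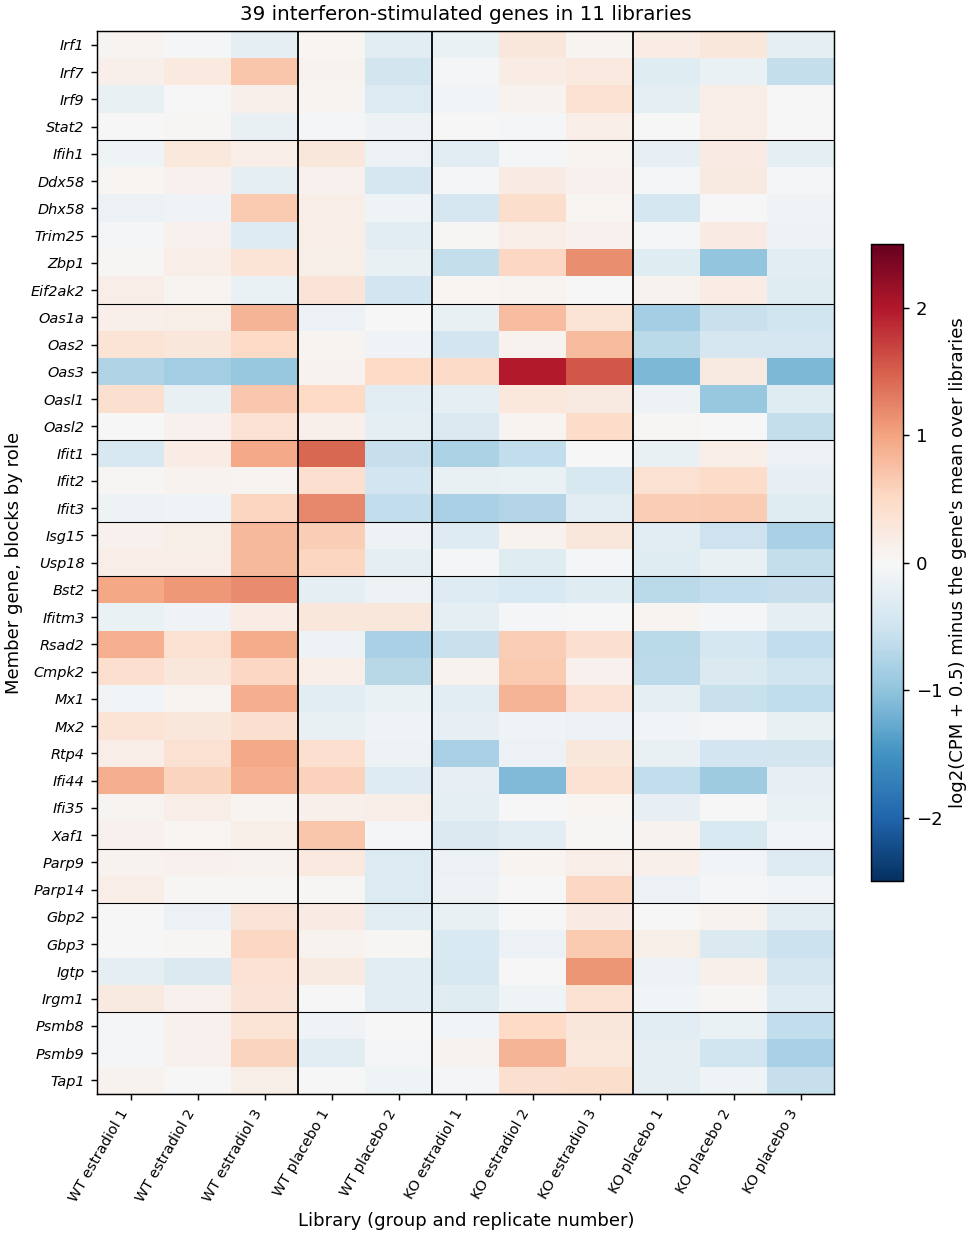
Levels of the 39 genes (rows, in blocks by role) in the 11 libraries (columns, grouped), as log2(CPM + 0.5) minus the mean of the gene over libraries. Bst2 is high in the 3 WT estradiol libraries, Oas3 is highest in KO estradiol 2 and KO estradiol 3, and WT placebo 1 and WT placebo 2 differ for many genes.

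Estradiol in WT tissue raised Bst2 and no other of the 39 genes in the quasi-likelihood test of edgeR, at a Benjamini-Hochberg adjusted p under 0.05. The 1 member called compares with 1.55% of all genes tested in either direction and 0.654% on the higher side. Bst2 stood at 41.2, 44.8 and 48.4 CPM in WT estradiol libraries, against 17.8 and 19.3 CPM in WT placebo. Its means were 44.8 ± 3.55 CPM (SD, n = 3) in WT estradiol and 18.5 ± 1.05 CPM (SD, n = 2) in WT placebo, with 975 to 1173 counts and 283 and 330 counts behind them. All WT estradiol libraries thus lay above both placebo libraries by more than the spread within either group. The difference was 2.42-fold (log2 1.28, SE 0.10, adjusted p = 7.88e-05).

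The remaining effector genes of virus defence did not pass in WT. Rsad2, whose product viperin makes a chain-terminating nucleotide, had 24.7, 17.1 and 25.3 CPM in WT estradiol libraries, against 11.9 and 7.28 CPM in WT placebo. Its groups did not overlap, and the log2 difference was 1.21 (SE 0.34, edgeR adjusted p = 0.122). Its neighbour Cmpk2, which makes the nucleotide substrate of viperin, had a log2 difference of 0.63 (edgeR adjusted p = 0.273) and groups that did not overlap. In the authors' deposited table of this comparison, Bst2 and Rsad2 were the 2 members with an adjusted p under 0.05. The same held for 497 of all 14859 genes with an adjusted p there.

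Ifitm3 went the other way, with 78.3, 83.3 and 99.9 CPM in WT estradiol libraries and 107 CPM in each WT placebo library (log2 -0.30, SE 0.12, edgeR adjusted p = 0.278). Ifi44, a cytoplasmic antiviral protein gene, had 6.79, 5.20 and 6.68 CPM in WT estradiol libraries, against 5.28 and 2.59 CPM in WT placebo. Its groups overlapped (log2 0.65, edgeR adjusted p = 0.574).

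The IFIT genes, whose proteins bind foreign RNA ends, and the ISG15 system showed the split between the placebo libraries. Ifit1 had 2.29, 3.68 and 6.55 CPM in WT estradiol libraries, against 9.48 and 1.97 CPM in WT placebo. Ifit3 had 5.68, 5.70 and 9.31 CPM in WT estradiol libraries, against 14.97 and 3.88 CPM in WT placebo. Isg15, which encodes a ubiquitin-like modifier, had 4.66, 4.78 and 7.96 CPM in WT estradiol libraries, against 6.89 and 3.88 CPM in WT placebo. In all 3 genes the WT placebo 1 library was high and the WT placebo 2 library low, and the groups overlapped. Their log2 differences were -0.47 (SE 0.57) for Ifit1, -0.46 (SE 0.50) for Ifit3 and 0.10 (SE 0.32) for Isg15, with edgeR adjusted p of 0.8, 0.77 and 0.94. Ifit3 shares reads with a near-identical mouse copy, Ifit3b, so its level is uncertain.

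The factors that drive the programme varied less. Irf7, which amplifies type I interferon production, had 9.59, 10.4 and 14.3 CPM in WT estradiol libraries, against 9.26 and 6.19 CPM in WT placebo (log2 0.56, SE 0.22, edgeR adjusted p = 0.272). Its estradiol libraries all lay above the placebo libraries, the nearest by a small margin. Stat2 had 30.6, 31.5 and 27.2 CPM in WT estradiol libraries, against 29.7 and 28.0 CPM in WT placebo, and Irf9 had 21.9, 25.2 and 27.3 CPM against 26.2 and 19.7 CPM. Both overlapped between the groups, with log2 differences of 0.04 (95% interval -0.18 to 0.27) for Stat2 and 0.11 (-0.27 to 0.49) for Irf9.

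Over the 39 genes, 31 differences were positive and 8 negative in WT, with a median log2 difference of 0.15, against 0.00 over all genes tested. The groups did not overlap for 11 genes on the higher side and 2 on the lower side, Oas3 and Ifitm3, where the same held for 13.2% and 13.8% of all genes. The median rested on the WT placebo libraries. It was 0.45 without WT placebo 1 and 0.00 without WT placebo 2.

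**Figure D2:**
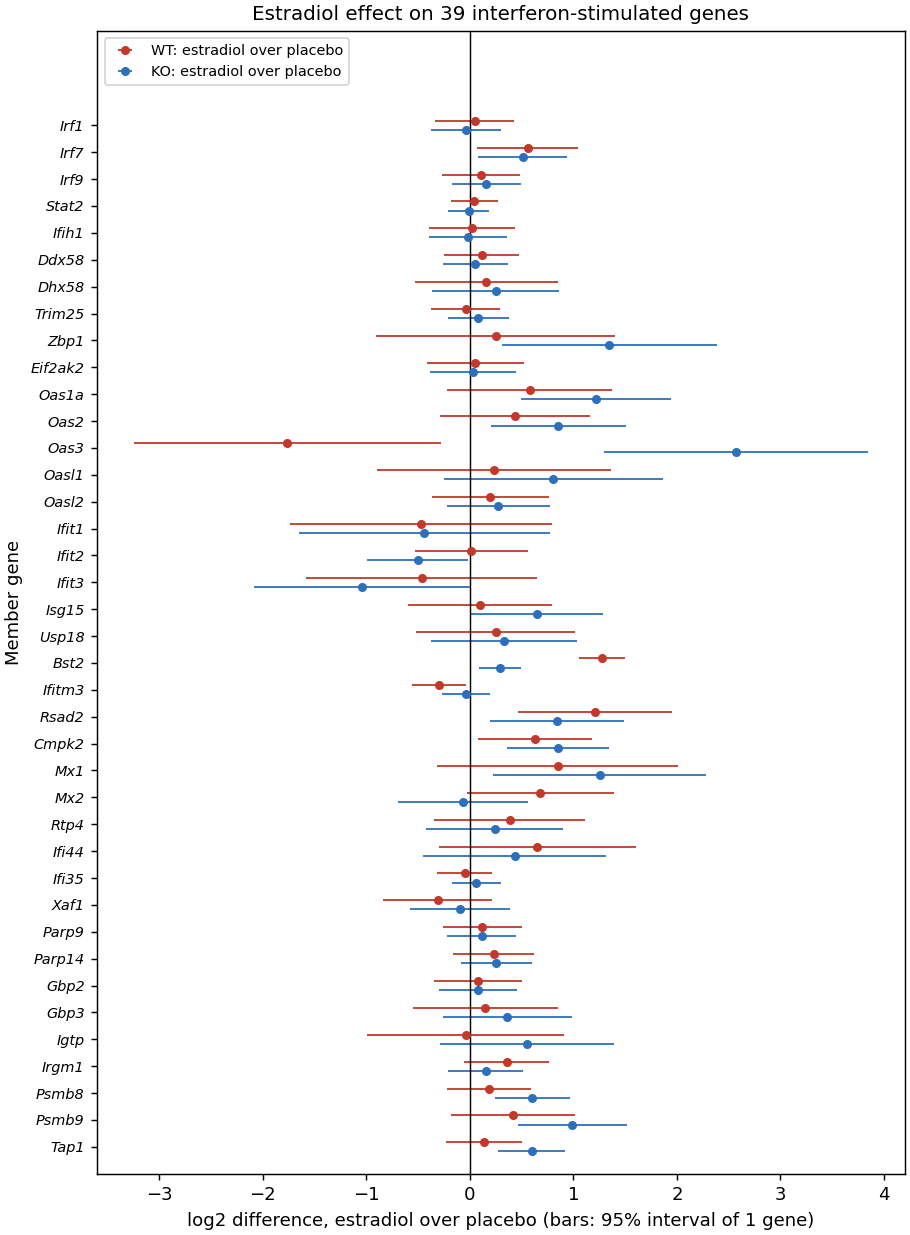
Log2 difference of estradiol over placebo for each of the 39 genes, in WT (red) and in KO (blue), with bars for the 95% interval of a single gene from the edgeR fit. Bst2 stands at 1.28 in WT and 0.29 in KO, and Oas3 at -1.76 in WT and 2.57 in KO.

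In KO tissue estradiol raised Oas3 alone among the 39 genes, where 2.73% of all genes were called and 2.36% were higher. Oas3 had 2.07, 6.71 and 4.87 CPM in KO estradiol libraries, against 0.338, 1.64 and 0.340 CPM in KO placebo. These levels stood on 37, 113 and 109 counts in KO estradiol libraries and on 8, 35 and 8 counts in KO placebo. Every KO estradiol library lay above every KO placebo library, the nearest pair by little, and the spread within each group was wide. The difference was 5.93-fold (log2 2.57, SE 0.58, edgeR adjusted p = 0.0431). In WT the order was turned round, with 0.592, 0.506 and 0.453 CPM in WT estradiol libraries and 1.45 and 2.11 CPM in WT placebo (log2 -1.76, SE 0.68, edgeR adjusted p = 0.254).

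The Oas3 call in KO was near the threshold. It was lost without any single WT estradiol library, without KO placebo 1 or 3 and without KO estradiol 2 or 3, with log2 differences of 2.20 to 2.57 and edgeR adjusted p of up to 0.156.

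The antigen processing members, which cut and move peptides for MHC class I, had higher levels in KO estradiol than in KO placebo libraries, without a call. Psmb9, a subunit of the immunoproteasome, had 7.20, 12.5 and 8.18 CPM in KO estradiol libraries, against 5.71, 4.64 and 3.65 CPM in KO placebo. Tap1, a subunit of the peptide transporter, had 20.4, 28.1 and 28.9 CPM in KO estradiol libraries, against 17.7, 19.6 and 13.9 CPM in KO placebo. Psmb8, a further immunoproteasome subunit, had 17.9, 26.7 and 23.1 CPM in KO estradiol libraries, against 15.6, 16.8 and 12.1 CPM in KO placebo. All 3 genes had groups that did not overlap, and none passed. Their log2 differences were 0.99 (SE 0.24) for Psmb9, 0.60 (SE 0.15) for Tap1 and 0.60 (SE 0.17) for Psmb8, with edgeR adjusted p of 0.0522, 0.056 and 0.0801. In WT the log2 differences of Psmb9, Tap1 and Psmb8 were also positive, at 0.415, 0.14 and 0.19, with edgeR adjusted p of 0.567, 0.802 and 0.738. Psmb9 had 6.63, 7.27 and 10.1 CPM in WT estradiol libraries, against 5.49 and 6.53 CPM in WT placebo, without overlap, whereas Tap1 and Psmb8 overlapped. The interaction test called none of these genes (edgeR adjusted p of 0.474 to 0.643). Psmb9 and Tap1 share 212 exon bases on opposite strands, which are 5.79% and 3.87% of their exon bases. The use of strand in counting is not given in the sources used here, so these 2 may share some reads and may not be independent.

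Oas1a, Cmpk2 and Oasl2 had lower differences than Oas3. Oas1a, the gene of a smaller 2-5A synthetase, had 2.01, 4.39 and 3.13 CPM in KO estradiol libraries, against 1.10, 1.45 and 1.53 CPM in KO placebo (log2 1.22, SE 0.33, edgeR adjusted p = 0.0782). Its groups did not overlap, and with the replicate number as a block it was called (log2 1.20, SE 0.29, edgeR adjusted p = 0.0434). Cmpk2, a nucleotide kinase gene beside Rsad2, had 9.21, 13.9 and 9.34 CPM in KO estradiol libraries, against 5.33, 6.61 and 6.03 CPM in KO placebo, also without overlap (log2 0.85, SE 0.23, edgeR adjusted p = 0.07). Oasl2, an OAS-like gene whose protein ends in ubiquitin-like repeats, had 8.54, 11.7 and 15.5 CPM in KO estradiol libraries, against 11.3, 11.2 and 7.18 CPM in KO placebo. These overlapped (log2 0.28, SE 0.23, edgeR adjusted p = 0.622).

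Bst2 in KO tissue stood at 16.5, 16.0 and 16.9 CPM in estradiol libraries, against 13.0, 13.4 and 13.8 CPM in placebo libraries. The groups were tight and did not overlap, but the log2 difference was 0.29 (SE 0.09) and did not pass (edgeR adjusted p = 0.123). Rsad2 had 8.71, 20.3 and 17.5 CPM in KO estradiol libraries, against 7.99, 9.57 and 8.37 CPM in KO placebo. Here KO estradiol 1 lay within the placebo range (log2 0.84, SE 0.29, edgeR adjusted p = 0.176).

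The IFIT genes were negative in KO. Ifit3 had 3.35, 3.56 and 5.005 CPM in KO estradiol libraries, against 9.81, 9.89 and 4.93 CPM in KO placebo (log2 -1.04, SE 0.47, edgeR adjusted p = 0.307), and KO placebo 3 lay among the estradiol libraries. Ifit1 had 1.62, 1.90 and 3.13 CPM against 2.71, 3.61 and 2.80 CPM (log2 -0.44, SE 0.55). Isg15 was on the other side, with 3.35, 4.63 and 5.36 CPM in KO estradiol libraries and 3.42, 2.86 and 2.25 CPM in KO placebo (log2 0.65, SE 0.29, edgeR adjusted p = 0.298).

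Among the factors, Irf7 had 8.43, 9.91 and 10.4 CPM in KO estradiol libraries, against 6.93, 7.64 and 5.61 CPM in KO placebo, without overlap (log2 0.51, SE 0.20, edgeR adjusted p = 0.215). Stat2 had 31.1, 30.3 and 34.5 CPM in KO estradiol libraries and 30.8, 34.8 and 31.1 CPM in KO placebo. Irf9 had 23.8, 26.6 and 32.8 CPM in KO estradiol libraries and 21.3, 28.3 and 25.1 CPM in KO placebo. Both overlapped, with log2 differences of -0.01 (95% interval -0.21 to 0.19) for Stat2 and 0.16 (-0.17 to 0.49) for Irf9. Ifitm3 (log2 -0.04) and Ifi44 (log2 0.43) also overlapped between the groups.

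Over the 39 genes in KO, 30 differences were positive and 9 negative, with a median log2 difference of 0.26, against 0.00 over all genes. The median was 0.04 without KO estradiol 3 and 0.38 without KO estradiol 1. Groups did not overlap for 8 genes on the higher side and 0 on the lower side, against 12.4% of all genes on each side. In the authors' deposited table of this comparison, 8 members had an adjusted p under 0.05, namely Cmpk2, Ifit3, Oas1a, Oas3, Psmb8, Psmb9, Rsad2 and Tap1. The same held for 1074 of all 14287 genes with an adjusted p there.

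The 6 sensors of viral RNA and their regulators had log2 differences with estradiol between -0.04 and 0.25 in WT, and the smallest edgeR adjusted p was 0.83. Ddx58, which encodes RIG-I, ranged from 19.6 to 30.9 CPM over the libraries, and Ifih1, which encodes MDA5, from 8.49 to 12.7 CPM. Trim25, the ubiquitin ligase that activates RIG-I, ranged from 34.0 to 48.9 CPM, and Eif2ak2, the gene of the kinase PKR that halts translation, from 14.2 to 25.1 CPM. The RIG-I-like regulator gene Dhx58 ranged from 3.34 to 7.67 CPM. The highest difference of these 6 in KO was that of Zbp1, a sensor of Z-form nucleic acid, which had 0.893, 2.55 and 4.25 CPM in KO estradiol libraries, against 1.23, 0.563 and 1.23 CPM in KO placebo. KO estradiol 1 lay within the placebo range (log2 1.35, edgeR adjusted p = 0.17). Without KO estradiol 1, edgeR called Zbp1 in KO.

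The interferon-inducible GTPases, which act on vacuoles that hold microbes, gave 0 calls in either genotype by edgeR at an adjusted or an unadjusted p under 0.05, or by DESeq2. Gbp2 ranged from 9.98 to 15.5 CPM over the libraries, Gbp3 from 4.76 to 11.4 CPM, Igtp from 5.56 to 16.8 CPM and Irgm1 from 17.6 to 29.3 CPM. KO placebo 3 was the lowest library for all 4, and KO estradiol 3 the highest for Gbp3, Igtp and Irgm1. Igtp shares exon bases with Irgm2 on the same strand. The ADP-ribosyltransferase genes Parp9 (16.3 to 24.6 CPM) and Parp14 (14.2 to 26.2 CPM) had log2 differences of 0.11 to 0.26 in both genotypes.

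Among the members with the lowest levels, Mx1 and Mx2, genes of the dynamin-like GTPase family, ranged from 0.51 to 2.43 CPM and from 0.837 to 1.53 CPM. Mx2 had 1.46, 1.38 and 1.525 CPM in WT estradiol libraries, against 0.861 and 0.953 CPM in WT placebo, without overlap (log2 0.68, edgeR adjusted p = 0.379). Oasl1 ranged from 0.281 to 1.90 CPM and Usp18, the protease that removes ISG15 and also dampens the receptor, from 1.15 to 3.92 CPM. The remaining members were Oas2 (1.99 to 6.35 CPM), Ifit2 (9.25 to 18.1 CPM), Irf1 (27.6 to 41.3 CPM), Ifi35 (13.4 to 17.9 CPM), the chaperone gene Rtp4 (3.63 to 13.5 CPM) and the apoptosis factor gene Xaf1 (3.66 to 8.24 CPM), and edgeR called none of them in any comparison. Oas2 was called in KO when KO estradiol 1 was left out.

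**Figure D3:**
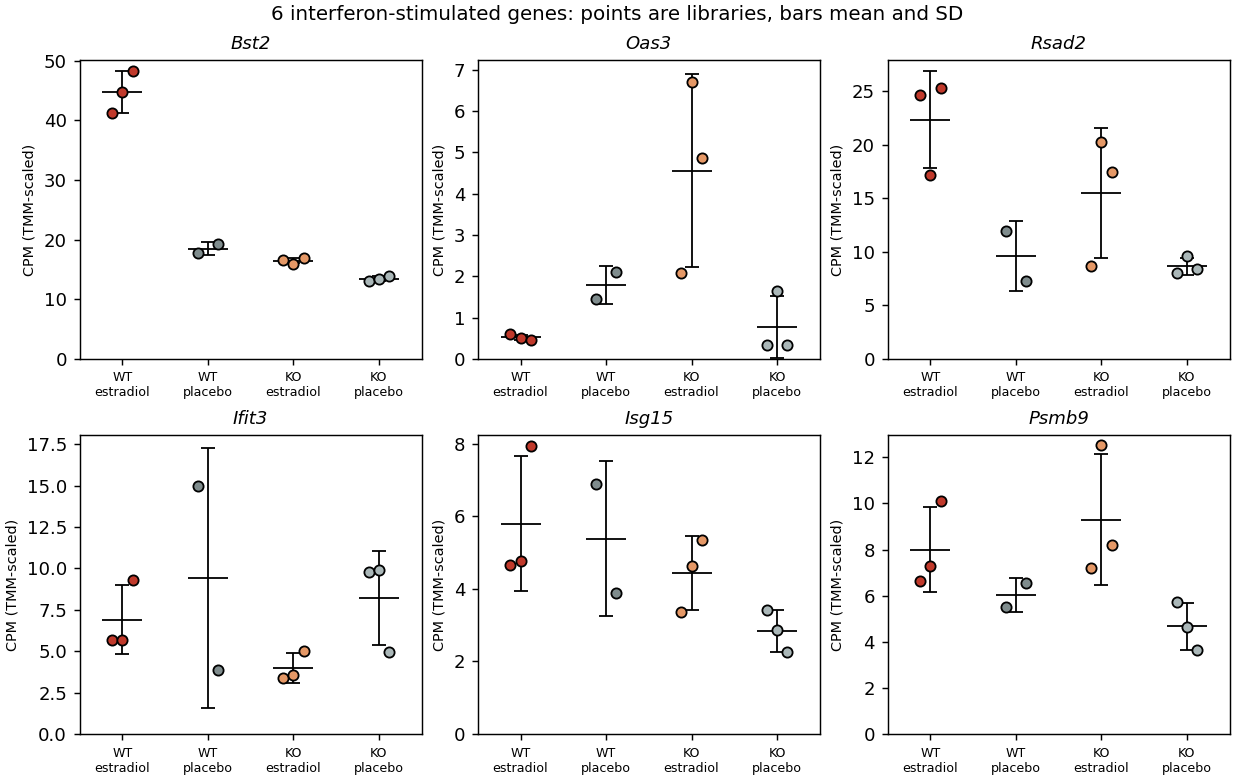
CPM of 6 genes in each library of the 4 groups (points), with the mean and SD of the group (bars). Bst2 lies at 41.2 to 48.4 CPM in WT estradiol and at no more than 19.3 CPM elsewhere, whereas Oas3 is highest in KO estradiol and Ifit3 is split between the WT placebo libraries.

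Neutrophil marker genes were set beside Oas3 in each library. The 14 markers summed to 1214, 4459 and 1542 CPM in KO estradiol libraries, against 1.56, 713 and 158 CPM in KO placebo, and KO estradiol 2 and KO placebo 2, with the highest sums of their groups, also had the highest Oas3 of their groups. In WT the sums were 8.72, 41.5 and 9.48 CPM in estradiol libraries, against 219 and 495 CPM in placebo libraries. In the order of their sums, KO estradiol 3 had more Oas3 (4.87 CPM) than KO estradiol 1 (2.07 CPM). Likewise WT placebo 2 had more (2.11 CPM) than WT placebo 1 (1.45 CPM). KO placebo 3 and KO placebo 1, at sums of 158 and 1.56 CPM, had nearly equal Oas3, at 0.340 and 0.338 CPM. The WT estradiol libraries did not follow the order. There WT estradiol 2, with the highest sum of its group, had less Oas3 (0.506 CPM) than WT estradiol 1 (0.592 CPM). Of the 14, 1 marker (Fcnb, log2 4.19) was called in KO and 0 in WT by edgeR. In KO all 14 differences were positive (median log2 3.17), 8 were higher at an unadjusted p under 0.05, DESeq2 called 2 and the replicate block 4. In WT all 14 were negative (median log2 -4.00), 8 were lower at an unadjusted p under 0.05, and DESeq2 called 6 lower. None of the 14 was at 0 in every library of a group. With the block, 5 B lineage markers were called higher in KO, against 1 without it. In WT edgeR called 6 of 14 B lineage markers lower (0 to 11 over the alternatives), and all 14 differences were negative (median log2 -3.09). The B lineage markers summed to 236 to 414 CPM in KO estradiol, 119 to 253 CPM in KO placebo, 23.5 to 28.2 CPM in WT estradiol and 75.9 and 83.9 CPM in WT placebo. Among 20 cell cycle genes, 15 were called higher with estradiol in KO. Of 13 skeletal muscle markers tested, 11 were lower with estradiol in KO at an unadjusted edgeR p under 0.05, and 2 had positive differences. For these markers edgeR called 0, and DESeq2 called 10 lower. Erythroid markers summed to 18.8, 202 and 133 CPM in KO estradiol libraries, against 6.72, 63.2 and 17.3 CPM in KO placebo. They summed to 24.1, 24.0 and 24.6 CPM in WT estradiol libraries, against 7.54 and 15.9 CPM in WT placebo. Within the KO groups and WT placebo these sums had the same order as Oas3, but in WT they were higher with estradiol, where Oas3 was lower. The part of these cells in the Oas3 difference was not tested.

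Osteoclast markers stood beside Bst2 in WT. The 10 markers summed to 12906 to 13294 CPM in WT estradiol libraries, against 9265 and 11144 CPM in WT placebo, and to 8415 to 9943 CPM in KO estradiol libraries, against 9054 to 10297 CPM in KO placebo. In WT 2 of the 10 rose by edgeR, Acp5 (log2 0.61) and Ocstamp (log2 0.58), and DESeq2 called 5 higher. All 10 differences were positive in WT (median log2 0.42), and 5 were higher at an unadjusted edgeR p under 0.05. In KO 0 passed by edgeR, at an adjusted or an unadjusted p under 0.05, or by DESeq2. Without WT placebo 2 and KO estradiol 2, 0 of the 10 were called in WT. None of the 10 was at 0 in any group. The macrophage markers summed to 1235 to 1531 CPM in WT estradiol and to 1097 and 1146 CPM in WT placebo, with 0 of 13 tested called by edgeR, 2 by DESeq2 and 9 higher at an unadjusted p under 0.05. Osteoclast and macrophage markers were not alone in this. Of 12 endothelial markers, 11 had positive differences in WT (median log2 0.23), 5 were higher at an unadjusted edgeR p under 0.05 and edgeR called 1. In KO 11 of these 12 were negative. By the interaction test edgeR called 1 endothelial marker higher (0 to 3 over the alternatives) and 0 osteoclast markers (0 to 2). Of 20 cell cycle genes, 11 were higher in WT at an unadjusted edgeR p under 0.05. The part of these cells in the Bst2 difference was not tested.

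Plasmacytoid dendritic cells, which carry Bst2 at high levels in the mouse, were read from 12 markers, Bst2 itself among them. Their sum was 387 to 530 CPM in WT estradiol and 457 and 568 CPM in WT placebo, but most of it came from Tcf4 (138 to 197 CPM in WT estradiol) and Runx2 (141 to 231 CPM), which skeletal cells also express, so it does not read these dendritic cells. In WT 4 of the 11 markers tested, Bst2 included, had positive differences and 7 negative ones, with a median of -0.22 on the log2 scale. Siglech, a surface marker, had 3.51, 3.27 and 4.74 CPM in WT estradiol libraries, against 2.42 and 3.47 CPM in WT placebo (log2 0.39, edgeR adjusted p = 0.695). The chemokine receptor gene Ccr9 had 0, 0.046 and 0 CPM in WT estradiol libraries, against 0.538 and 0.612 CPM in WT placebo, from at most 10 counts a library (edgeR adjusted p = 0.0518). Apart from Bst2, Lair1 rose in WT (log2 1.13) and Spib fell (log2 -4.72). Their part was likewise not tested.

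**Figure D4:**
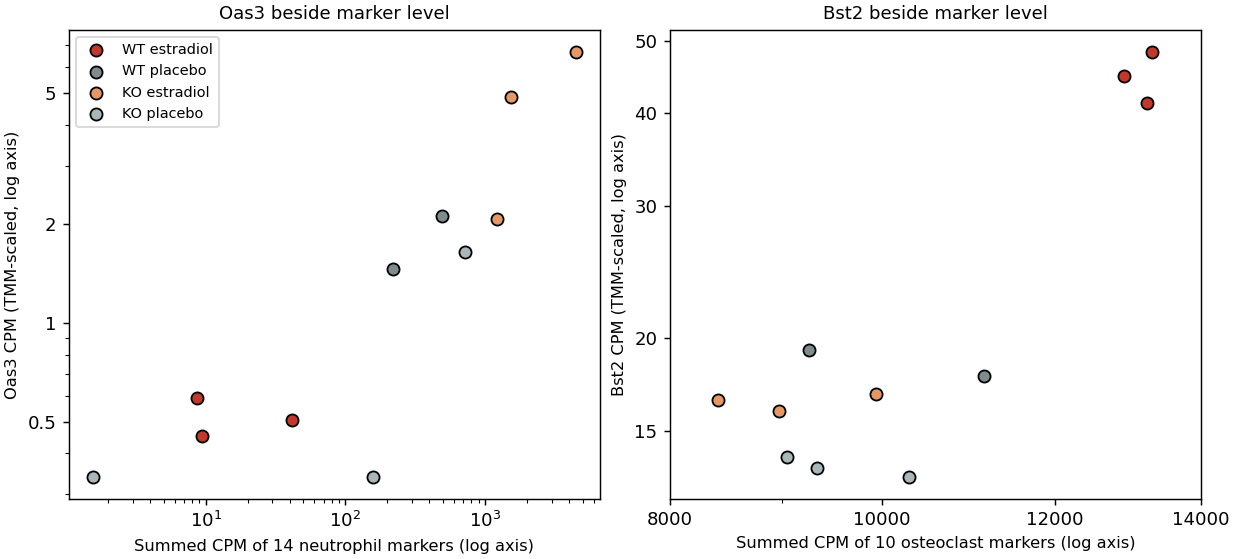
Left, Oas3 CPM against the summed CPM of 14 neutrophil markers. Right, Bst2 CPM against the summed CPM of 10 osteoclast markers. Each point is 1 of the 11 libraries, coloured by group, and all axes are logarithmic. The KO estradiol libraries lie farthest right in the left panel, with Oas3 at 2.07 to 6.71 CPM, and the WT estradiol libraries at the top right of the right panel.

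The estradiol effects of the genotypes differed for the same 2 genes by the interaction test, in which 1.15% of all genes were called, 0.31% on the higher side and 0.84% on the lower. For Bst2 the WT effect exceeded the KO effect by 0.98 on the log2 scale (SE 0.14, 95% interval 0.69 to 1.28, edgeR adjusted p = 0.00409). For Oas3 the WT effect lay below the KO effect by a log2 difference of -4.33 (SE 0.89, 95% interval -6.28 to -2.38, edgeR adjusted p = 0.0446). The Oas3 call was lost without any single library of WT placebo or WT estradiol, without KO placebo 1 or 3 and without KO estradiol 2 or 3, with edgeR adjusted p of up to 0.166. The third smallest p belonged to Tap1 (log2 -0.46, SE 0.22, edgeR adjusted p = 0.474). The other 37 genes were not shown to respond differently, and their intervals were wide in places. Rsad2 had an interaction of 0.37 (95% interval -0.61 to 1.34), Isg15 of -0.55 (-1.49 to 0.39) and Stat2 of 0.05 (-0.25 to 0.35). By the same edgeR test 1 of 14 neutrophil markers was called lower (0 to 10 over the alternatives). Of 14 B lineage markers 6 were called lower (0 to 12 over the alternatives). At an unadjusted p under 0.05, 13 neutrophil and 12 B lineage markers were lower. The part of these cells in the Oas3 interaction was not tested.

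Between the genotypes under estradiol, Oas3 was higher and Bst2 lower in KO tissue, and the other 37 genes did not pass, where 11.5% of all genes did, 7.27% of all genes being higher and 4.2% lower. Bst2 had 16.5, 16.0 and 16.9 CPM in KO estradiol libraries, against 41.2, 44.8 and 48.4 CPM in WT estradiol. The difference was log2 -1.45 (SE 0.09, edgeR adjusted p = 3.33e-06), with no overlap and a wide gap. Oas3 had 2.07, 6.71 and 4.87 CPM in KO estradiol libraries, against 0.592, 0.506 and 0.453 CPM in WT estradiol (log2 3.12, SE 0.60, edgeR adjusted p = 0.0078). Ifi44 had 2.85, 1.31 and 4.51 CPM in KO estradiol libraries, against 6.79, 5.20 and 6.68 CPM in WT estradiol. Its groups did not overlap, and it did not pass (log2 -1.09, SE 0.39, edgeR adjusted p = 0.0971).

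Of the 39 genes, 14 differences were positive and 25 negative in this comparison, and the median log2 difference was -0.09. It was -0.20 without WT estradiol 1, -0.16 without WT estradiol 2, -0.05 without WT estradiol 3, 0.02 without KO estradiol 1 and -0.16 without KO estradiol 3. Groups did not overlap for 1 gene on the higher side and 8 on the lower, against 17.7% and 16.9% of all genes. In the authors' deposited table, Bst2, Ifi44, Ifit3 and Oas3 had an adjusted p under 0.05, as did 1959 of all 15044 genes with an adjusted p there. Markers of other cells differed widely between these groups. In KO 10 of 14 neutrophil markers and 14 of 14 B lineage markers were higher, and 6 of 10 osteoclast, 7 of 13 macrophage and 5 of 12 endothelial markers were lower. Their part in the member differences was not tested.

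Under placebo, 0 of the 39 genes differed between the genotypes by edgeR, limma-voom or DESeq2, and edgeR called 0.00688% of all genes. At an unadjusted p under 0.05, 0 members were higher and 5 lower in KO, namely Bst2, Isg15, Ifitm3, Ifi35 and Xaf1. Bst2 had 13.0, 13.4 and 13.8 CPM in KO placebo libraries, against 17.8 and 19.3 CPM in WT placebo, without overlap (log2 -0.46, SE 0.10, edgeR adjusted p = 0.468). Isg15 had 3.42, 2.86 and 2.25 CPM in KO placebo libraries, against 6.89 and 3.88 CPM in WT placebo (log2 -0.93, SE 0.32, edgeR adjusted p = 0.514). Ifitm3 had 92.5, 87.0 and 75.3 CPM in KO placebo libraries, against 107 CPM in each WT placebo library (log2 -0.33, SE 0.12, edgeR adjusted p = 0.514). The groups did not overlap for 1 gene on the higher side, Stat2, and for 9 on the lower side, against 13.2% and 13.8% of all genes. Over the 39 genes, 10 differences were positive and 29 negative, with a median log2 difference of -0.25, against -0.003 over all genes tested. The median was -0.03 without WT placebo 1, with 19 positive and 20 negative, and -0.33 without WT placebo 2. The comparison rested on 2 WT libraries, 1 of which stood apart.

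Genes that could start or carry an interferon signal were read from further lists. Of 12 ligand genes, 10 were in the table and 0 could be tested. Ifnb1, Ifna1, Ifna2, Ifna4, Ifna5, Ifne and Ifnk had 0 counts in every library, and Ifng had at most 1 count in a library. Ifnz had 13 counts in 7 libraries, at most 5 in one (KO placebo 3, 0.212 CPM), and Ifnab had 1 count in 1 library. A count of 0 in a library allows a level of up to 3 counts, which is 0.118 to 0.204 CPM at these depths. The receptors were well expressed, with Ifnar1, a chain of the type I receptor, at 86.6 to 88.1 CPM in WT estradiol libraries, 85.3 and 89.2 CPM in WT placebo, 87.8 to 92.6 CPM in KO estradiol and 89.6 to 98.7 CPM in KO placebo. Ifnar2 (50.4 to 66.0 CPM over the libraries) and Ifngr1 (103 to 122 CPM) were likewise even, and none of these 3 was called in any comparison.

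Of the 14 receptor, kinase and factor genes tested, 0 were called with estradiol in WT by edgeR, 3 were higher at an unadjusted p under 0.05, and DESeq2 called 1. In KO, Irf8, a factor of myeloid and B cells, rose with estradiol (log2 1.06, SE 0.23, edgeR adjusted p = 0.0351). It had 26.6, 38.0 and 25.6 CPM in KO estradiol libraries, against 12.9, 18.99 and 11.6 CPM in KO placebo, and this call was lost in 8 of 20 alternatives. Under estradiol Ifngr2, a chain of the gamma receptor, and Jak1 were lower in KO than in WT (log2 -0.36 and -0.40, edgeR adjusted p = 0.0147 and 0.0169), and Irf8 was higher (log2 1.46).

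Sensing and feedback genes gave few calls. Of 15 nucleic acid sensing genes, Tlr9, a DNA sensor of immune cells, was higher in KO under estradiol (log2 1.02, edgeR adjusted p = 0.0324), and 0 were called with estradiol in either genotype by edgeR or DESeq2, where 1 in WT and 4 in KO were higher at an unadjusted p under 0.05. Of 10 negative regulators, the STAT inhibitor gene Socs2 was lower (log2 -0.80) and Cish higher (log2 0.81) in KO under estradiol, and 0 were called with estradiol in either genotype by edgeR. At an unadjusted p under 0.05, 1 was higher and 1 lower in each genotype, and DESeq2 called 1 higher and 1 lower in each. With the replicate block, 1 was called higher and 1 lower in KO (Ptpn6 and Socs3).

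Among 51 further interferon-induced genes tested, Gbp6, a guanylate-binding GTPase gene, rose with estradiol in WT. It had 5.64, 7.17 and 6.22 CPM in WT estradiol libraries, against 0.969 and 0.612 CPM in WT placebo (log2 2.98, SE 0.52, edgeR adjusted p = 0.0123). In KO it had 0.447, 1.31 and 2.32 CPM in estradiol libraries, against 1.48, 1.17 and 1.02 CPM in placebo libraries, which overlapped. The WT libraries were far apart and the KO libraries were not, but the interaction did not pass (log2 2.80, SE 0.67, edgeR adjusted p = 0.066). The WT call was lost without WT placebo 1 or WT placebo 2 (adjusted p up to 0.0804), and Gbp6 belongs to a cluster of near-identical genes. In KO 4 of the 51 rose, namely Ly6e, Sp100, Ifi203 and Lgals9, against 0 to 8 over the alternatives and 7 with the replicate block. The calls were lost in 3 of 20 alternatives for Ly6e, 5 for Sp100, 10 for Ifi203 and 12, the block among them, for Lgals9. Ly6e, which encodes a small membrane protein, had 176, 202 and 184 CPM in KO estradiol libraries, against 128, 140 and 122 CPM in KO placebo (log2 0.53, SE 0.10, edgeR adjusted p = 0.0144), and its groups lay well apart. Without WT placebo 2 and KO estradiol 2, a setting added after the data were seen, 1 of the 51 was called in KO and 0 in WT. The median log2 difference over the 51 was 0.14 in WT and 0.37 in KO.

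Between the genotypes under estradiol, 7 of the 51 were higher in KO, namely Lgals9, Slfn1, Sp110, Sp140, Sp100, Ifi203 and Trim30a. Gbp6 (log2 -2.19), the lysosomal reductase gene Ifi30 (log2 -0.57) and Phf11d (log2 -0.89) were lower. Over the alternatives 1 to 9 were higher. Of 20 alternatives, the call was lost in 0 for Lgals9, 4 each for Sp110 and Sp140, 5 each for Slfn1 and Phf11d, 6 for Sp100, 8 for Ifi203 and 11 for Trim30a. Lgals9, the gene of galectin 9, had 48.3, 61.8 and 39.99 CPM in KO estradiol libraries, against 22.02, 20.6 and 29.1 CPM in WT estradiol (log2 1.06, SE 0.17, edgeR adjusted p = 0.00224). The neutrophil and B lineage sums given above were also higher in these KO libraries, and their part in these differences was not tested.

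MHC class I genes show the peptides that the antigen processing members supply, and are themselves raised by interferons. Of 15 tested, 4 rose with estradiol in WT and 0 in KO by edgeR, where 3 in KO were higher at an unadjusted p under 0.05 and DESeq2 called 0. H2-K1, a classical heavy chain gene, had 397, 426 and 444 CPM in WT estradiol libraries, against 256 and 271 CPM in WT placebo (log2 0.68, SE 0.10, edgeR adjusted p = 0.00349). In KO it had 237, 245 and 246 CPM in estradiol libraries, against 225, 212 and 183 CPM in placebo libraries (log2 0.23, SE 0.09, edgeR adjusted p = 0.189). H2-D1, B2m, the light chain gene, and H2-Q4 rose in WT by log2 differences of 0.56, 0.56 and 0.77. H2-D1 had 250, 259 and 279 CPM in WT estradiol libraries, against 168 and 188 CPM in WT placebo, and B2m had 928, 942 and 1141 CPM against 655 and 707 CPM. In each of these genes the 3 WT estradiol libraries lay above both placebo libraries. The interaction called 0 of the 15 by edgeR, with 3 higher and 1 lower at an unadjusted p under 0.05, and DESeq2 called 2 higher. For H2-K1 the WT effect exceeded the KO effect by 0.45 on the log2 scale (SE 0.13, edgeR adjusted p = 0.133).

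The H2-K1 call in WT stood in 20 of 20 alternatives, that of H2-D1 in 18, that of B2m in 17 and that of H2-Q4 in 9. H2-D1 and B2m lost it without WT placebo 1, and H2-Q4 without any single WT library. Without WT placebo 2 and KO estradiol 2, 2 of the 15 were called in WT. Genes of the H2 family share reads with near-identical copies, so that their separate levels are uncertain.

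Under estradiol, 6 of the 15 were lower in KO than in WT tissue and 0 were higher. H2-K1 (log2 -0.80, SE 0.09), H2-D1 (log2 -0.76, SE 0.09), B2m (log2 -0.73, SE 0.10) and H2-Q4 (log2 -0.73, SE 0.15) were among them, with edgeR adjusted p of 0.000174, 0.000203, 0.000578 and 0.00837. Nlrc5, the gene of the factor that drives MHC class I transcription, had 9.16, 12.05 and 15.6 CPM in KO estradiol libraries, against 19.8, 24.1 and 21.0 CPM in WT estradiol (log2 -0.81, SE 0.18, edgeR adjusted p = 0.0147). The sixth was Pdia3, a chaperone gene of peptide loading (log2 -0.37, edgeR adjusted p = 0.0314). The macrophage, osteoclast and endothelial markers counted above were also lower in these KO libraries, and their part was not tested.

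**Figure D5:**
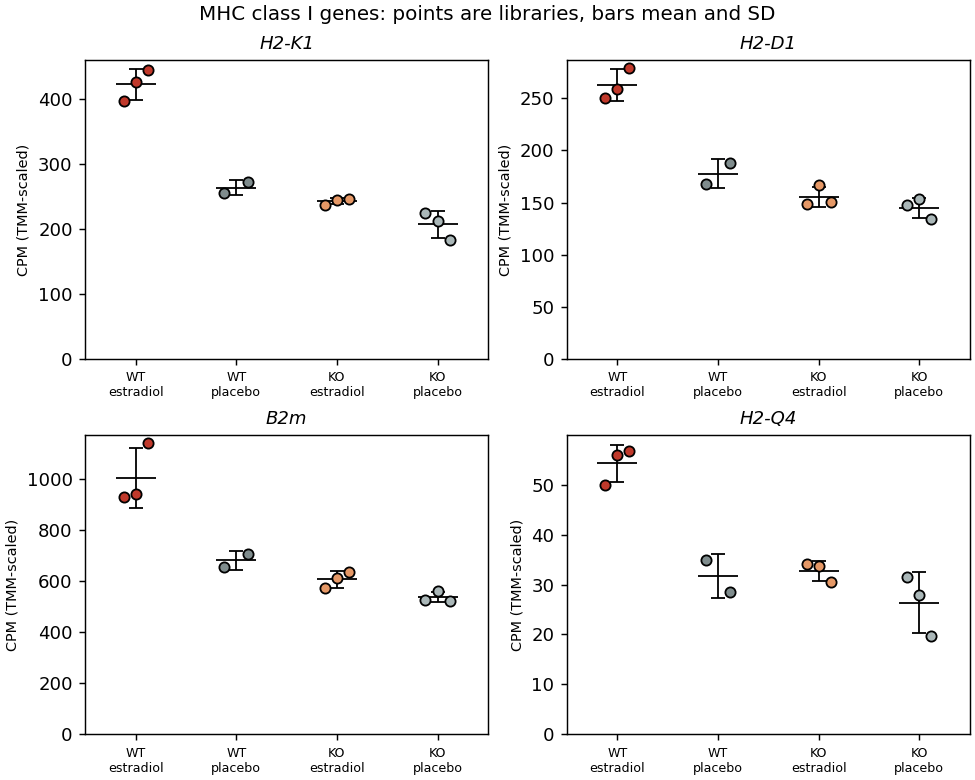
CPM of the MHC class I genes H2-K1, H2-D1, B2m and H2-Q4 in each library of the 4 groups (points), with the mean and SD of the group (bars). The 3 WT estradiol libraries lie above all other libraries in each panel, for H2-K1 at 397 to 444 CPM against at most 271 CPM elsewhere.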

How the data were processed

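Poly-A RNA of 11 samples in 4 groups was sequenced with 100-base reads, per the labels' protocols. The submitters' processing notes name bcl2fastq 2.17 and TopHat as tools and mm9 as the build. For the counting program, its annotation and the use of strand, the sources used here give nothing. The deposited table holds raw counts for 23420 symbols, of which 27 had been turned into dates and 5218 had no count. The authors also deposited 6 tables of comparisons, with log2 fold changes, standard errors, a test score, and raw and adjusted p-values, per the file headers.

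From the counts, edgeR 4.0.16 in R 4.3.3 (filterByExpr with a minimum count of 10 and total of 15, TMM scaling, robust quasi-likelihood fit) tested 14531 genes, which hold 99.98% of counts, in 1 model of the 4 groups over all 11 samples, with 7 residual degrees of freedom. Each of 5 comparisons was adjusted by the Benjamini-Hochberg method over the 14531 genes and called at an adjusted p under 0.05. The standard error (SE) is the absolute log2 difference over the square root of F. Beside each adjusted p in the text, edgeR stands for this quasi-likelihood test. Spans given as 3 counts cover counting error only, because PCR copies without molecular tags are counted as separate reads. Steps that test across genes were tested on simulated data.

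Members, roles, pathway lists and marker lists were chosen with earlier results of these data known. Values by library, for at least 1 comparison each, are given for 15 named members. These are members called in any comparison, the 3 members of smallest p in each, and 11 set by name, and some meet more than 1 of these rules. Cmpk2, Oas1a and the genes of other lists were named for their calls, for groups that did not overlap or for their small p. Alternatives were another scaling (DESeq2 size factors), other filters, no Rn45s, DESeq2 1.42.0, limma-voom (limma 3.58.1), only the groups compared, a replicate block (fitted over all 11 libraries), and each library left out. Exon lengths and overlaps came from GENCODE M21 on GRCm38, used for lengths only. No 2 libraries of a group agreed within sampling noise. One gene of the pathway lists is not reported here by name. Residuals of the 3 same-numbered KO estradiol and KO placebo pairs correlated at 0.183 to 0.42, and of the 6 other KO pairs at -0.345 to 0.064. Because residuals were taken from group means, high values in some pairs force low values in others, so these correlations cannot establish a pairing. The 2 same-numbered WT estradiol and WT placebo pairs correlated at -0.188 and -0.176. Nothing in the labels pairs the libraries either, so the block is an alternative fit without a known pairing behind it. Blocked values stand beside KO results whose call or count they change. Over all genes the block called 629 in KO, against 396 without it.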

Additional observations from a re-analysis of the deposited data

Results flagged for a closer look

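The effect of estradiol differed between the genotypes for 2 of the 39 genes by the interaction test of edgeR's quasi-likelihood fit with Benjamini-Hochberg adjustment. For Bst2 the WT effect minus the KO effect was 0.98 on the log2 scale (adjusted p = 0.00409), and over the 20 alternatives it ran from 0.93 to 1.05 with adjusted p of up to 0.028. For Oas3 it was -4.33 (adjusted p = 0.0446), with Oas3 lower with estradiol in every WT library and higher with estradiol in every KO library. This call was lost in 11 of 20 alternatives, with adjusted p of up to 0.233. The library with the highest Oas3, KO estradiol 2 (6.71 CPM), also held the highest sum of neutrophil markers (4459 CPM). This was not particular to neutrophil markers. The same library held the highest sums of B lineage (414 CPM), T and NK cell (57.6 CPM), macrophage (1573 CPM), erythroid (202 CPM) and cell cycle (1158 CPM) markers.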

How the results depend on the processing

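Of the 39 genes, those called with estradiol in WT numbered 1, and 2 with DESeq2 (Bst2 and Rsad2), and 1 to 2 when each library was left out in turn (2 without KO estradiol 1). In KO the count of 1 became 6 at an adjusted p under 0.1, 3 without a filter on low counts, 7 with DESeq2 and 0 with only the groups compared. It became 2 with the replicate block (Oas1a and Oas3). It ran from 0 to 8 when each library was left out, with 8 without KO estradiol 1, 2 without either WT placebo library and 0 without WT estradiol 1 or 2, KO placebo 1 or 3 or KO estradiol 2 or 3. It was 0 without both WT placebo 2 and KO estradiol 2, a setting chosen after seeing the data. The interaction count of 2 became 1 with limma-voom, 1 in that added setting and 1 to 2 when each library was left out. KO against WT gave 0 under placebo in every alternative and 2 to 3 under estradiol. The Bst2 calls in WT, in the interaction and in KO against WT under estradiol stood in all 20 alternatives. Oas3 lost its KO call in 9 and its interaction call in 11, and kept that against WT under estradiol in 20 (log2 2.73 to 3.47). None of the 15 named members changed direction where it was called in the main or an alternative setting, and the cause of these changes was not tested.

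Over all genes, DESeq2 called 639 against 225 in WT, 936 against 396 in KO and 554 against 167 in the interaction. The replicate block called 629 in KO and 301 in the interaction. Apart from Oas1a, the block changed no member's call with estradiol in KO. Same-numbered libraries of the other pairs of groups had residual correlations from -0.188 to 0.186. In the other comparisons the block added Ifi44 to the members called in KO against WT under estradiol and left the WT count at 1.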
